A study of Mus musculus with 8 samples.

Results

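Bhlhe40, Nkain1, Phospho1 and C77080 are 4 genes whose levels in osteoclast precursor cells differed with the extracellular protein PRDX1 in opposite directions, according to whether the osteoclast-inducing cytokine RANKL was present. They are 4 of the 25124 genes in the expression table. They were chosen from these same libraries because their mean level was higher with PRDX1 than without it in the absence of RANKL, and lower with PRDX1 than without it in the presence of RANKL. The sign of both PRDX1 differences is therefore fixed by the choice and is given below as a description, with no test. The effect of RANKL averaged over both PRDX1 conditions is not part of this rule and was tested. The rule alone fits 2018 of the 11700 genes tested, and the 4 were chosen with earlier results of these data known. Their RANKL response may thus have been known at the choice, which the p-values do not allow for.

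Adherent macrophages were grown for 3 days with M-CSF from bone marrow of C57BL/6 mice aged 6 to 8 weeks, per the labels, whereas the cell culture methods of the study name ICR mice. They were then kept for 48 h in 4 groups of 2 libraries each. All 4 groups received 30 ng/mL M-CSF, the cytokine that keeps macrophage precursors alive. The MCSF group received nothing else, the PRDX1 group 200 nM recombinant PRDX1, the RANKL group 100 ng/mL RANKL, and the RANKL+PRDX1 group both. The PRDX1 was a His-tagged protein made in bacteria, and the study states that endotoxin was removed from it with a resin. The cells carried no engineered allele. RNA-seq reads were counted on exons and deposited as FPKM, the fragments scaled to transcript length and library size, so that levels of different genes can be compared per length. Nothing states that the 2 libraries of a group came from separate animals or cultures, so the p-values measure the spread between these libraries, which may be technical.

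M-CSF and RANKL together turn macrophage precursors into osteoclasts, the large cells that dissolve bone. PRDX1 is an antioxidant enzyme inside cells, and outside cells it can act on the innate immune receptor TLR4. Bhlhe40 is a helix-loop-helix repressor that binds E-boxes, answers to the circadian clock, hypoxia and cytokines, and is known to influence macrophage proliferation and osteoclast formation. Nkain1 is a membrane protein that interacts with the beta subunit of the Na,K-ATPase and is best known from neurons. Phospho1 is a phosphatase that releases phosphate from phosphocholine and phosphoethanolamine, and is best known for starting mineral deposition by bone- and cartilage-forming cells. C77080 is the mouse counterpart of human KIAA1522, a little-studied protein related to the NHS family of actin regulators.

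In the mm10 build, the listed transcript of Bhlhe40 (NM_011498) lay on the plus strand at chr6:108660629-108666925 with 5 exons. Nkain1 (NM_025998, 7 exons) and C77080 (NM_001285867, 7 exons) both lay on the minus strand of chromosome 4, at chr4:130530131-130574036 and chr4:129219578-129261404, 1.27 Mb apart. Phospho1 (NM_153104) lay on the plus strand at chr11:95824500-95832140 with 3 exons. The RefSeq promoter table of the same assembly (GRCm38.p6) matched 3 of the 4 genes. The 250 bases before the listed start site are shown for these 3. Bhlhe40 encodes a factor that binds the E-box CACGTG. The genes were chosen for a shared pattern, so nothing about shared control is read from their moving together across the groups. Capitals mark that E-box and the AP-1 motif TGANTCA, the letters bound by Fos and Jun proteins, searched on both strands. The windows were chr4:130574037-130574286 (minus strand), chr11:95824250-95824499 (plus strand) and chr4:129261405-129261654 (minus strand).
Nkain1: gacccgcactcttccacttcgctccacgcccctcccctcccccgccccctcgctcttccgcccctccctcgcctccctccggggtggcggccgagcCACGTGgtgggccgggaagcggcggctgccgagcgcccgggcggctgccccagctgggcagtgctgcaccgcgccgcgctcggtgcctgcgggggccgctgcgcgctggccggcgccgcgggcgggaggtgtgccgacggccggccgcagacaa
Phospho1: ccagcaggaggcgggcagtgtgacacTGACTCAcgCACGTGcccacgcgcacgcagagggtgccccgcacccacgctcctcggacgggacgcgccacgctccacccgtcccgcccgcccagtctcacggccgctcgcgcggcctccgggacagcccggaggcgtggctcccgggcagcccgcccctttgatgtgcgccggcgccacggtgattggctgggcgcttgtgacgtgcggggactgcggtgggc
C77080: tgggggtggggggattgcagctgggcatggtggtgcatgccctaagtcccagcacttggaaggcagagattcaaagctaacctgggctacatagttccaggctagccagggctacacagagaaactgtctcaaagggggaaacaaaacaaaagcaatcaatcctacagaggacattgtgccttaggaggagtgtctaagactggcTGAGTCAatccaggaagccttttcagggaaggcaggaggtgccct

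The Nkain1 window held 1 CACGTG, beginning 154 bases before the start site, and no TGANTCA. The Phospho1 window held both, with TGANTCA beginning 224 bases and CACGTG 215 bases before the start, so that the motifs did not overlap. The C77080 window held TGANTCA 45 bases before the start and no CACGTG. The table has 4 start sites for C77080, and the windows of the other 3 held neither motif, with a GC content of 76.4%, 68.8% and 58.8%. Of the 32851 windows of this length in the table, 6.02% held CACGTG and 6.75% held TGANTCA. The NFAT core GGAAAA, present in 20.4% of windows, the CRE TGACGTCA, present in 1.55%, and the NF-kB consensus, present in 7.25%, had no match in the 3 windows. GC content was 80.4% for Nkain1, 75.6% for Phospho1 and 52.8% for C77080, beside a median of 52.4% over all windows. The Nkain1 and Phospho1 windows were richer in GC than that median, so the share of all windows with CACGTG is not matched to them in GC. These matches describe the letters of the windows and were not tested against binding.

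The 8 libraries held 27284654 to 46171829 reads each, of which 24542578 to 41712973 lay on genes. Between 4.75% and 9.69% of those reads fell on the 10 genes with the most reads. Replicates differed by more than counting noise (chi-square divided by its degrees of freedom, 4.71 to 9.58). The cells held the markers of the macrophages they were labelled as, and the 8 macrophage markers summed to 15480 to 17260 FPKM in MCSF, 16250 to 16710 in PRDX1, 13140 to 13530 in RANKL+PRDX1 and 9729 to 10150 in RANKL. RANKL lowered 4 of the 8 on average (6.61% of all genes tested), and PRDX1 raised 4 in the presence of RANKL (6.03%) and lowered 1, Mrc1, in its absence (-1.11). Most of the sum was Lyz2, the macrophage lysozyme, at a mean of 14117 FPKM in MCSF and 8597 in RANKL. The sum was lowest where the 4 genes were highest. The 8 osteoclast markers summed to 32.4 to 33.5 FPKM in MCSF, 79.7 to 84.1 in PRDX1, 234 to 241 in RANKL+PRDX1 and 1813 to 1909 in RANKL, with none at 0 in all libraries. Most of this sum was the osteoclast phosphatase Acp5, at a mean of 53.7 FPKM in PRDX1 and 1105 in RANKL. Of the 7 tested, PRDX1 raised 3 without RANKL (3.8% of all genes tested) and lowered 7 with RANKL (4.17%). Without RANKL, Ctsk (0.15), Oscar (0.038), Ocstamp (0.085) and Mmp9 (0.51) were not called. The sum had the order of the groups in which the 4 genes stood, and the part of either cell type in their levels was not tested. In bulk RNA, fewer cells of a type and less RNA per cell cannot be told apart.

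The summed level of 4 chondrocyte markers did not exceed 0.103 FPKM, that of 8 erythroid markers 0.546 FPKM and that of 5 neuronal markers 0.222 FPKM. The 10 osteoblast and stromal markers summed to 8.89 to 11.6 FPKM in MCSF and 8.90 to 10.9 in RANKL, and to 17.8 to 18.1 in PRDX1 and 16.7 to 20.5 in RANKL+PRDX1. Of the 5 tested, PRDX1 raised 2 without RANKL (3.8% of all genes tested) and 2 with RANKL (6.03%), the collagen genes Col1a1 (0.63 and 0.79) and Col1a2 (0.88 and 0.90). The others, at 0.21 and 0.24 for Col3a1, -0.0077 and 0.18 for Runx2, and 0.42 and 0.40 for Cxcl12, were not called. The 8 neutrophil markers summed to 8.56 to 12.7 FPKM in MCSF, 39.9 to 44.3 in PRDX1, 16.4 to 17.1 in RANKL and 35.0 to 38.7 in RANKL+PRDX1. The part of either cell type in the levels of the 4 genes was not tested. The sums for 6 dendritic cell markers and 6 B and T cell markers did not exceed 4.41 and 2.29 FPKM.

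Bhlhe40 was the most abundant of the 4, with a mean over all libraries of 14.8 FPKM, above 57.9% of the genes tested. Its FPKM was 2.78 and 3.04 in MCSF, 7.68 and 7.35 in PRDX1, 30.0 and 34.2 in RANKL, and 16.7 and 16.6 in RANKL+PRDX1. No library of one group overlapped another group, and RANKL stood highest and MCSF lowest. The means were 2.91 ± 0.184, 7.52 ± 0.235, 32.1 ± 2.98 and 16.6 ± 0.0820 FPKM in that order (SD, n = 2). Each library held between 256 and 3669 reads on the gene. The mean was 2.58-fold higher in PRDX1 than in MCSF, and 1.93-fold higher in RANKL than in RANKL+PRDX1.

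Nkain1, the membrane partner of the sodium pump, followed Bhlhe40 closely at a lower level. It was at 0.863 and 1.40 FPKM in MCSF, 3.25 and 3.98 in PRDX1, 15.8 and 15.8 in RANKL, and 8.70 and 8.00 in RANKL+PRDX1. The groups did not overlap. Their means were 1.13 ± 0.381, 3.61 ± 0.514, 15.8 ± 0.0170 and 8.35 ± 0.493 FPKM (SD, n = 2), from 65 to 1389 reads per library. PRDX1 exceeded MCSF 3.19-fold, and RANKL exceeded RANKL+PRDX1 1.89-fold.

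Phospho1, the phosphocholine phosphatase, had FPKM values of 2.25 and 1.34 in MCSF, 3.85 and 2.85 in PRDX1, 8.66 and 10.5 in RANKL, and 3.72 and 3.71 in RANKL+PRDX1. RANKL was apart from the other 3 groups, while the 2 RANKL+PRDX1 libraries lay between the 2 PRDX1 libraries. The group means were 1.80 ± 0.641, 3.35 ± 0.704, 9.58 ± 1.30 and 3.71 ± 0.00849 FPKM (SD, n = 2), from 107 to 691 reads per library. The ratio of PRDX1 to MCSF was 1.87, and that of RANKL to RANKL+PRDX1 was 2.58.

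C77080 stood at 1.01 and 1.07 FPKM in MCSF, 2.68 and 2.47 in PRDX1, 11.0 and 12.2 in RANKL, and 3.01 and 3.48 in RANKL+PRDX1. Here too the groups did not overlap, but both groups with PRDX1 lay close to each other. The means were 1.04 ± 0.0382, 2.57 ± 0.151, 11.6 ± 0.895 and 3.24 ± 0.332 FPKM (SD, n = 2), and the libraries held 148 to 2085 reads. PRDX1 was 2.47-fold above MCSF, and RANKL was 3.58-fold above RANKL+PRDX1, the largest such ratio of the 4 genes.

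**Figure D1:**
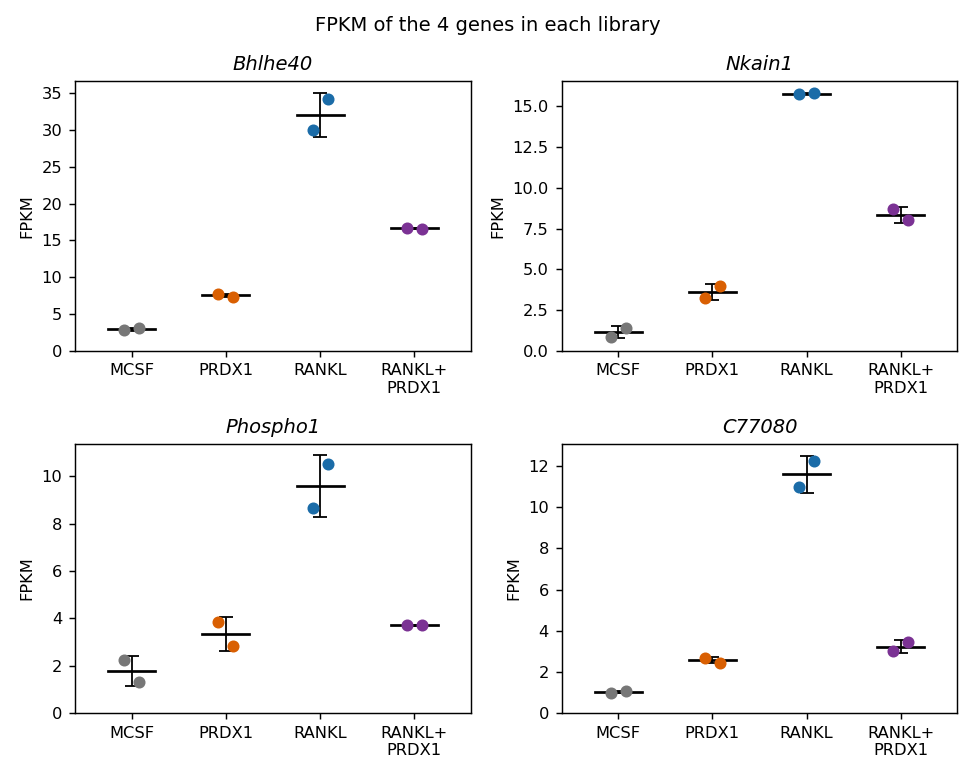
FPKM of each gene (vertical axis, from 0) in the MCSF, PRDX1, RANKL and RANKL+PRDX1 groups; each point is a library, the long bar is the group mean and the error bar is the SD of 2 libraries. All 4 genes were lowest in MCSF and highest in RANKL, and for Phospho1 the points of PRDX1 (3.85 and 2.85) enclose those of RANKL+PRDX1 (3.72 and 3.71).

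The 4 genes thus stood in a single order, with MCSF lowest, then PRDX1, then RANKL+PRDX1, then RANKL. For Phospho1 the middle groups did not differ beyond the spread of their libraries. On the log2(FPKM + 1) scale, which understates the change of low genes, the PRDX1 difference without RANKL was 1.12 for Bhlhe40, 1.12 for Nkain1, 0.65 for Phospho1 and 0.81 for C77080. With RANKL it was -0.90, -0.85, -1.16 and -1.57 in the same order. The positive difference left by PRDX1 alone was 36.5% of that left by RANKL alone for Bhlhe40, 37.5% for Nkain1, 33.5% for Phospho1 and 30.7% for C77080 on this scale.

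Within this order the genes formed 2 pairs by how much of the RANKL difference was missing when PRDX1 was also present. For Bhlhe40 and Nkain1, 29.4% and 28.3% of the log2 difference between RANKL and MCSF was absent in RANKL+PRDX1. For Phospho1 and C77080, 60.1% and 59.8% was absent. Counted in FPKM, the absent share was 52.9% for Bhlhe40, 50.8% for Nkain1, 75.4% for Phospho1 and 79.1% for C77080. RANKL+PRDX1 remained 2.21-fold and 2.31-fold above PRDX1 for the first pair, but only 1.11-fold and 1.26-fold above it for the second. The split was seen in the values and was not tested.

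All genes tested give a background for this pattern. A mean of 0.5 FPKM or more was required for testing, which 11700 genes passed, all 4 among them. Of these, 2018 (17.2%) had the same 2 signs in their means and 1982 (16.9%) had the reverse signs. In 697 genes (5.96%) the libraries also did not overlap in either comparison, and all 4 genes were among them. Each comparison alone separated its libraries more often, with PRDX1 above MCSF in 26.1% of the genes tested and RANKL+PRDX1 below RANKL in 43.1%. The full order of 4 groups with no overlap was found in 415 genes (3.55%), including Bhlhe40, Nkain1 and C77080 but not Phospho1. Genes were called at a limma adjusted p under 0.05 and a fold of at least 1.5 on the log2(FPKM + 1) scale. All 4 were called higher with PRDX1 without RANKL, as were 3.8% of the genes tested, and called lower with PRDX1 in the presence of RANKL, as were 4.17%, while 6.03% were called higher there. Since the choice used these contrasts, nothing is read from those calls.

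Both calls together were held by 16 genes (0.137% of those tested), and the reverse pair of calls by 9 genes (0.0769%). The 12 others included the osteoclast genes Atp6v0d2, a subunit of the proton pump that acidifies the resorption space, Acp5, the tartrate-resistant acid phosphatase, and Dcstamp, which is needed for cell fusion. They also included Src, the kinase that organizes the resorbing membrane, Mmp14, a membrane-bound matrix protease, and Tm4sf19, a tetraspan membrane protein. Atp6v0d2 was at mean FPKM values of 6.99 in MCSF, 22.8 in PRDX1, 176.6 in RANKL and 26.4 in RANKL+PRDX1. Src was at 0.748, 4.16, 39.4 and 14.2 in the same order. Both had the group order of the 4 genes. Of the 16 genes, 11 had a RANKL+PRDX1 mean above that of PRDX1 and 5 did not, namely Ccr3, Ldhb, Mir7653, Slc37a2 and Syt6, named after their values were seen. Phospho1 had the second smallest PRDX1 difference without RANKL among the 16 and left this set when MCSF replicate 2 (0.41) or PRDX1 replicate 1 (0.48) was left out, beside 0.65 with all libraries.

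**Figure D2:**
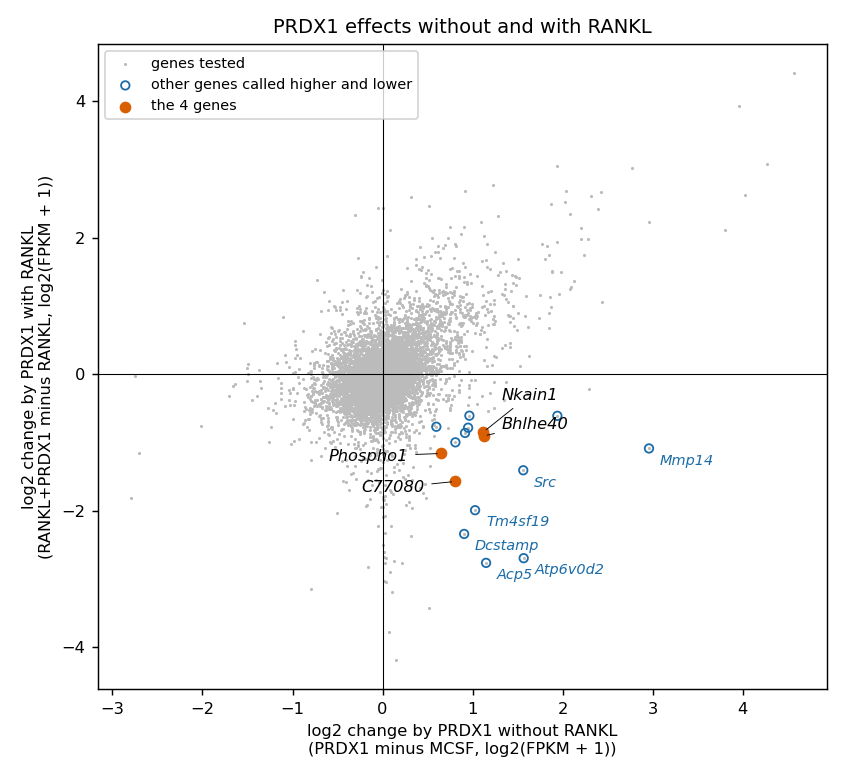
Log2 difference between PRDX1 and MCSF (horizontal) against that between RANKL+PRDX1 and RANKL (vertical) on the log2(FPKM + 1) scale for the 11700 genes tested, with the 4 genes as filled points and the 12 others called higher and then lower as open circles. The 4 genes sit in the lower right part, where their choice places them, at -0.85 to -1.57 on the vertical axis, nearer the origin than Atp6v0d2, Acp5 and Src.

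The average effect of RANKL compares the 4 libraries with RANKL with the 4 without it, and its contrast is orthogonal to both PRDX1 contrasts in this balanced design. That covers the rule only, and the p-values do not allow for earlier results known at the choice. All 4 genes were called higher by RANKL, as were 830 of the 11700 genes tested (7.09%), while 773 (6.61%) were called lower. Bhlhe40 rose by a log2 fold change of 2.06 (SE 0.054, 95% confidence interval 1.94 to 2.19, limma adjusted p = 6.998e-10). Nkain1 rose by 2.01 (SE 0.087, interval 1.81 to 2.20, limma adjusted p = 2.442e-08). C77080 rose by 1.44 (SE 0.066, interval 1.29 to 1.58, limma adjusted p = 3.816e-08). Phospho1 rose by 1.03 (SE 0.11, interval 0.77 to 1.28, limma adjusted p = 2.41e-05). By size these were places 60, 65, 135 and 282 among the 830 genes called higher. The median over all genes tested was 0.085. Of the 12 other genes with both PRDX1 calls, 8 were also called higher by RANKL on average.

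For 3 of the 4 genes, all 4 libraries with RANKL were above all 4 without it, a separation that 25.6% of the genes tested had. Phospho1 was the exception, through the PRDX1 library at 3.85 FPKM. The average is made of unequal parts. Without PRDX1 the RANKL difference was 3.08 for Bhlhe40, 2.99 for Nkain1, 1.93 for Phospho1 and 2.63 for C77080 on the log2 scale. With PRDX1 it was 1.05, 1.02, 0.12 and 0.25. These single contrasts share libraries with the choice of the genes and are given with no test.

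Phospho1 shares its sequence with a neighbour on the other strand, which bears on its reads. Its last exon of 1590 bases, 83.2% of its exonic length, lies inside the last exon of Abi3, an actin-regulating component of the WAVE complex, on the minus strand. A transcript model of Zfp652 on the same strand covers 89.0% of the exonic bases, although the Zfp652 transcript listed in the table does not reach Phospho1. Reads were counted without regard to strand, so reads of Phospho1 and Abi3 in the shared exon cannot be told apart, and the levels of both are uncertain.

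Abi3 (NM_025659) was at 3.99 and 3.24 FPKM in MCSF, 4.53 and 4.34 in PRDX1, 7.17 and 9.53 in RANKL, and 4.19 and 4.55 in RANKL+PRDX1. Like Phospho1 it was highest in RANKL, and its other 3 groups lay near each other. The log2 difference of Abi3 with PRDX1 was -0.79 in the presence of RANKL and 0.24 without it, given with no test because its reads include those that served the choice of Phospho1. Its average RANKL effect was 0.50 (limma adjusted p = 6.351e-04), below the fold threshold. The reads counted on Phospho1 were 19.6% to 26.7% of those on Abi3 in MCSF, 31.1% to 40.2% in PRDX1, 52.1% to 57.1% in RANKL and 38.5% to 42.0% in RANKL+PRDX1. The share was thus highest in RANKL and lowest in MCSF.

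Reads on Abi3 beyond the number counted on Phospho1 are the fewest that must lie outside the shared exon. In RPM (reads counted, scaled to the size of the library) these numbered 11.8 and 10.5 in MCSF, 10.9 and 12.04 in PRDX1, 12.4 and 18.4 in RANKL, and 9.79 and 11.3 in RANKL+PRDX1. The reads on Phospho1 itself were 4.29 and 2.56 RPM in MCSF, 7.34 and 5.44 in PRDX1, 16.5 and 19.996 in RANKL, and 7.08 and 7.06 in RANKL+PRDX1. Which strand the shared reads came from was not tested.

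**Figure D3:**
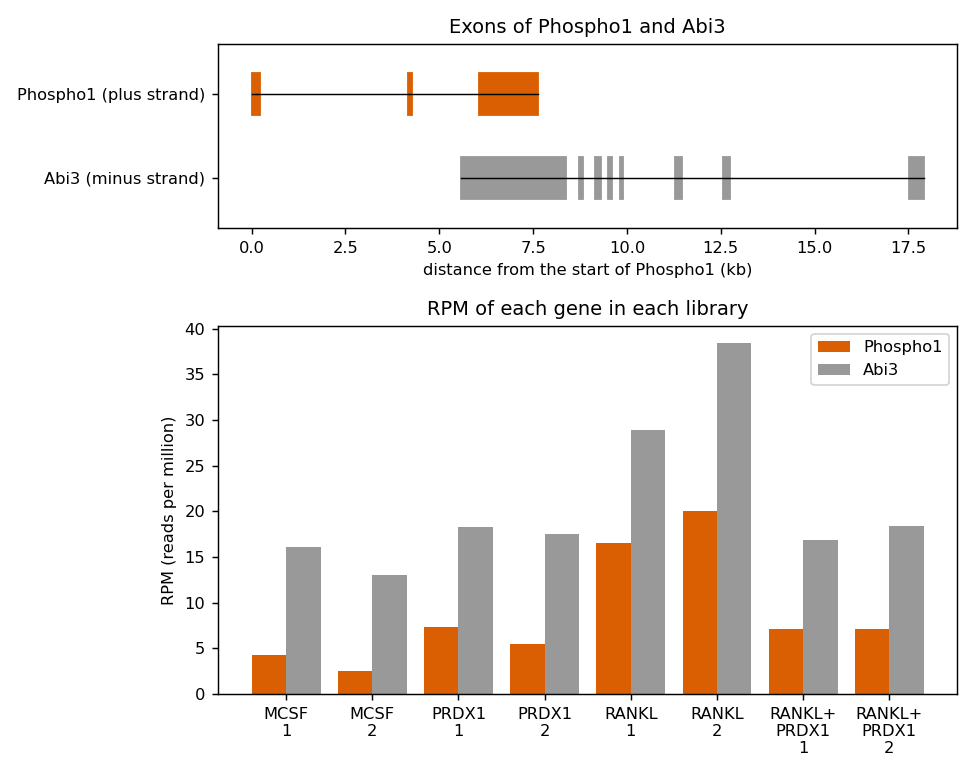
Upper panel, exons (boxes) of Phospho1 on the plus strand and Abi3 on the minus strand by distance in kb from the start of Phospho1; lower panel, RPM of each gene in each of the 8 libraries, numbered by replicate. The last exon of Phospho1 lies within the last exon of Abi3, and both genes have their tallest bars in RANKL, at 16.5 and 19.996 RPM for Phospho1.

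The other 3 genes shared little exonic sequence. Bhlhe40 shared 118 exonic bases (3.79%) with the antisense noncoding RNA 0610040F04Rik, whose average RANKL effect was 0.92 (limma adjusted p = 8.122e-06). C77080 shared 30 bases (0.594%) with Yars, the tyrosyl-tRNA synthetase, at 23.7 to 36.6 FPKM over the libraries. No gene overlapped the exons of Nkain1 in the annotation used.

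Paralogs of the 4 genes had other patterns. Bhlhe41, the closest relative of Bhlhe40 and likewise a clock-linked repressor, was at 5.02 and 5.71 FPKM in MCSF, 8.44 and 9.02 in PRDX1, 0.839 and 1.04 in RANKL, and 5.59 and 5.76 in RANKL+PRDX1. It was lowest in the group where Bhlhe40 was highest. Bhlhe41 rose with PRDX1 without RANKL by 0.61 (limma adjusted p = 7.544e-04) and with RANKL by 1.79 (limma adjusted p = 3.04e-07), and fell by 1.13 with RANKL on average (limma adjusted p = 1.766e-07). The mean level per length of Bhlhe41 was above that of Bhlhe40 in MCSF (5.37 against 2.91 FPKM) and below it in RANKL (0.939 against 32.1 FPKM).

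**Figure D4:**
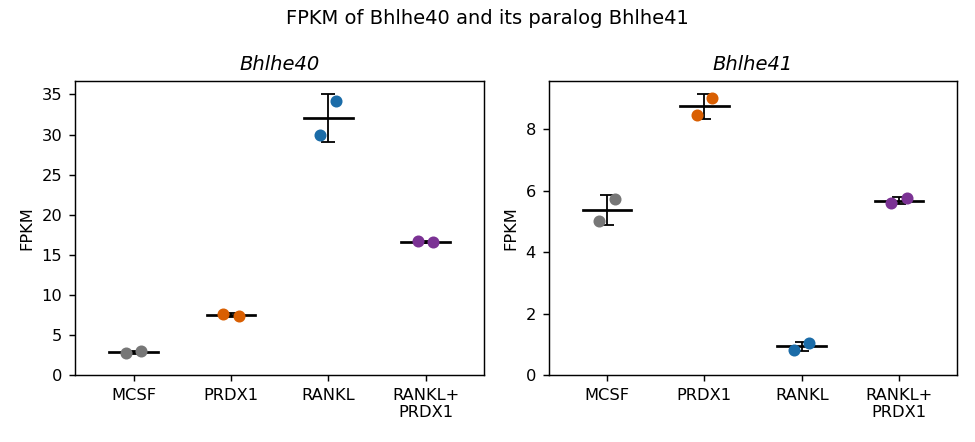
FPKM of Bhlhe40 and Bhlhe41 in each library by group, each on its own vertical axis from 0; points are libraries, long bars group means and error bars the SD of 2 libraries. In RANKL, Bhlhe40 has its highest points (30.0 and 34.2) and Bhlhe41 its lowest (0.839 and 1.04).

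Phospho2, a phosphatase of the same family as Phospho1, was at 8.79 to 11.9 FPKM in all libraries. It was called in none of the 3 comparisons, with log2 differences of 0.09 for PRDX1 without RANKL, 0.02 for PRDX1 with RANKL and -0.20 for average RANKL. Nkain2, Nkain3 and Nkain4 had 0 reads in all 8 libraries, so Nkain1 was the only member of its family detected at this depth, where 3 reads are the limit that a count of 0 allows. Nhs reached at most 0.008 FPKM and Nhsl1 at most 0.158. Nhsl2, another relative of C77080, was highest in MCSF at 0.719 and 0.703 FPKM and lay between 0.241 and 0.330 in the other groups. Those 3 genes were under the filter on low values.

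The genes most like each of the 4 were found by Pearson's r of log2(FPKM + 1) over the 8 libraries, among 11696 genes. The libraries fall into 4 groups, so r mainly reflects the spacing of the group means and is a description. Bhlhe40 was most like Src (0.999), the growth factor receptor Fgfr1 (0.996) and the endocytic adaptor Epn2 (0.995). Nkain1 was also most like Src (0.995), followed by the actin crosslinker Actn1 (0.993) and the intracellular cation channel Tmem38b (0.993). C77080 was most like the integrin subunit Itgav (0.996), Atp6v0d2 (0.995) and the transcription factor Mitf (0.993).

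Phospho1 was most like the mitochondrial enzymes Mpst (0.995) and Clpp (0.987) and the phosphatase Ptpn3 (0.983). Mpst was at mean FPKM values of 11.9 in MCSF, 13.0 in PRDX1, 16.0 in RANKL and 13.4 in RANKL+PRDX1, and Ptpn3 at 0.289, 0.414, 1.02 and 0.504. Among the 4 genes themselves, r was 0.995 between Bhlhe40 and Nkain1 and 0.977 between Phospho1 and C77080. Across these pairs it was 0.889 to 0.941.

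Lists of genes related to each of the 4 are read against all genes tested, of which PRDX1 raised 3.8% and lowered 1.99% without RANKL and raised 6.03% and lowered 4.17% with RANKL, and RANKL raised 7.09% and lowered 6.61% on average. Of 19 core clock genes tested, the average RANKL effect raised 1, the repressor Cry1 (0.59, limma adjusted p = 9.784e-06), and lowered 1, Bhlhe41, with 1 higher and 7 lower at an unadjusted p under 0.05 and a median of -0.086 over the list. With PRDX1, limma called 1 clock gene higher in each condition, Bhlhe41 in both, and 0 lower, with 3 lower at an unadjusted p under 0.05 in each condition. At that level 1 was higher without RANKL and 4 with RANKL. Voom called 1 higher without RANKL, 3 higher with RANKL and 0 lower in either, and 1 higher and 2 lower for average RANKL. Among 31 helix-loop-helix and Id factors, 2 rose and 3 fell with RANKL, led by Mycl, a Myc family factor (1.99), Lyl1, a blood cell factor (-1.60), and Id1, an inhibitor of helix-loop-helix factors (-1.40). In that list PRDX1 raised 3 and lowered 1 without RANKL (3.8% and 1.99% of all genes tested), and raised 5 and lowered 1 with RANKL (6.03% and 4.17%). Voom called 3 higher and 5 lower for average RANKL. Id1 was among those that rose with PRDX1 in both, by 2.21 and 1.99.

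Of 33 targets of the hypoxia factor HIF, RANKL raised 1, the cytokine Mif (0.74), and lowered 3, among them the heme-degrading enzyme Hmox1 (-1.67) and the collagen hydroxylase P4ha2 (-1.45). PRDX1 raised 4 and lowered 2 of them without RANKL (3.8% and 1.99% of all genes tested), and raised 3 and lowered 1 with RANKL (6.03% and 4.17%). With voom the numbers raised and lowered were 2 and 6 for average RANKL, 4 and 2 for PRDX1 without RANKL, and 6 and 1 with RANKL. The medians of the average RANKL effect were -0.016 for the helix-loop-helix list and 0.13 for the hypoxia list, beside 0.085 for all genes tested.

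Around Nkain1, only 6 of the 18 genes of the Na,K-ATPase and its partners passed the filter. RANKL raised 1, Fxyd2, a regulatory subunit of the pump (1.87, limma adjusted p = 8.874e-07), and lowered 1, with a list median of 0.20. With PRDX1, limma called 1 of the 6 higher in the presence of RANKL and 0 without RANKL, where 3 were higher at an unadjusted p under 0.05 and voom also called 0.

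Around Phospho1, 30 genes of phosphocholine and phosphoethanolamine metabolism were tested. RANKL raised 1, the choline transporter Slc44a1 (0.87), and lowered 3, among them the glycerophosphodiesterase family members Gdpd5 (-1.01) and Gdpd1 (-0.93), with a list median of -0.15. PRDX1 raised 1 and lowered 2 without RANKL (3.8% and 1.99% of all genes tested), and raised 4 and lowered 1 with RANKL (6.03% and 4.17%). With voom the numbers raised and lowered were 1 and 6 for average RANKL, 3 and 2 for PRDX1 without RANKL, and 7 and 1 with RANKL. Of 7 mineralization genes tested, RANKL raised 1, the pyrophosphate transporter Ank (0.75, limma adjusted p = 6.537e-08). It lowered 2, Enpp1, which makes pyrophosphate (-1.93, limma adjusted p = 2.044e-09), and Spp1, the secreted matrix protein osteopontin (-1.85, limma adjusted p = 5.735e-11). The list median was 0.018. PRDX1 raised 1 mineralization gene without RANKL (2 by voom), and raised 3 and lowered 1 with RANKL.

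Enpp1 and Ank differed in direction across the groups. Enpp1 was at 6.00 and 6.01 FPKM in MCSF, 6.27 and 6.73 in PRDX1, 0.496 and 0.486 in RANKL, and 1.48 and 1.40 in RANKL+PRDX1. Ank was at 24.5 and 25.3, 18.4 and 17.7, 62.6 and 63.5, and 20.8 and 20.6 FPKM in the same order. Ank was thus highest in RANKL, as Phospho1 was, but was not higher in PRDX1 than in MCSF. Alpl, the phosphatase that works beside Phospho1 in mineralizing cells, had at most 6 reads in a library and did not exceed 0.068 FPKM.

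Around C77080, a list of NHS relatives and of the WAVE complex and the proteins through which it drives branching of actin was examined. Its 23 genes that were tested were all of the second kind, since Nhs, Nhsl1 and Nhsl2 were under the filter. RANKL raised 1, Nckap1 (0.59, limma adjusted p = 1.11e-04), and lowered 1, Cyfip2 (-0.72), both WAVE complex subunits, with a list median of -0.016. With PRDX1, limma called 1 lower in the presence of RANKL, Abi3, whose reads cannot be told apart from those of Phospho1 in the shared exon, so that nothing is read from this call. Without RANKL it called 0, where 2 were higher and 10 lower at an unadjusted p under 0.05 and voom called 1 higher. At that unadjusted level, 4 were higher and 12 lower with PRDX1 in the presence of RANKL, Abi3 among the lower. The list median there was -0.13, beside -0.057 for all genes tested. Nckap1 was at 0.340 and 0.586 FPKM in MCSF, 0.890 and 1.02 in PRDX1, 2.004 and 1.81 in RANKL, and 1.20 and 1.21 in RANKL+PRDX1. Its groups stood in the order of C77080 without overlap, at a lower level.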

How the data were processed

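RNA-seq libraries of cultured mouse cells, 8 in 4 groups of 2, were sequenced. Per the labels, HISAT2, HOMER and DESeq2 were used with mm10, with versions not given in the sources used here; the authors deposited FPKM of 25124 RefSeq genes, 1 transcript per gene, counted on exons of both strands, with 0 other columns of per-sample values. FPKM times length gave whole reads for 100% of the values checked (tolerance 0.1 reads). The floor of 3 reads covers counting error only, and the limma intervals cover the spread between libraries.

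The 4 genes, the gene lists and the rule for named genes were chosen with earlier results of these data known. A mean of 0.5 FPKM or more was required, which left 11700 genes. Here log2(FPKM + 1) of these was fitted with limma 3.58.1 in R 4.3.3, with the 4 groups in a single model, a variance trend on mean level and 4 residual degrees of freedom. Genes with a Benjamini-Hochberg adjusted p under 0.05 over all genes tested and a fold of at least 1.5 were called. The PRDX1 contrasts served the choice of the 4 genes, whose p-values there are not given. With 2 libraries against 2, permutation cannot reach 0.05. Exon overlaps were taken from GENCODE M21 on the same build, promoters from RefSeq. Named were the 4 genes, their paralogs, the 3 genes most like each, overlapping and neighbouring genes, up to 3 called genes per list by size, and 6 of the 16 genes with both calls; levels of Alpl were added after its values were seen. Some genes the rule would name are not reported here. The fit was tested on simulated data with known changes in the average RANKL effect. No PRDX1 changes were simulated, so recovery of the PRDX1 calls was not tested. The alternatives were another pseudocount (0.1), 2 other filters, 2 other scalings, no trend, voom on the recovered reads, a replicate block and leaving out each library.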

Additional observations from a re-analysis of the deposited data

Results flagged for a closer look

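The PRDX1 difference with RANKL minus that without RANKL was -2.03 on the log2(FPKM + 1) scale for Bhlhe40, -1.97 for Nkain1, -1.81 for Phospho1 and -2.38 for C77080. Both libraries with PRDX1 lay on one side of those without it in the absence of RANKL and on the other side in its presence, for all 4 genes, and 5.96% of the genes tested did the same. The genes were chosen for this change of sign, so the difference was not tested.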

How the results depend on the processing

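The average RANKL effect on all 4 genes kept its direction and its call under all 16 alternatives. It ran from 1.99 to 2.28 for Bhlhe40, 1.91 to 2.46 for Nkain1, 0.91 to 1.27 for Phospho1 and 1.36 to 1.84 for C77080, with limma adjusted p-values up to 0.008303, that of Phospho1 with no filter on low values. Phospho1 left the set of genes called higher without RANKL and lower with it under no filter and without MCSF replicate 2 or PRDX1 replicate 1; nothing is read from the others, which were chosen on these contrasts. The number of such genes was 16, became 47 with a pseudocount of 0.1 and 44 with voom on the recovered reads, and was 16 to 19 with a library left out. With voom, PRDX1 raised 668 genes without RANKL and 1106 with RANKL, and RANKL lowered 1269. With a pseudocount of 0.1, PRDX1 lowered 360 genes without RANKL. The cause was not tested. Where a library was left out, the lone library of its group was assumed to vary like the other groups. Nothing states whether same-numbered libraries of different groups were paired. Their deviations from the group means correlated weakly, at 0.00847 to 0.0965. With the replicate block the number of genes with both calls was 16, and the RANKL effects were 2.06, 2.01, 1.03 and 1.44 as without it. Low reads limit Nkain1 and Phospho1 in MCSF (65 to 149).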

Other observations

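C77080 and Nkain1 lie 1.27 Mb apart on chromosome 4, with 37 other genes of the table between them, of which 22 were tested. Without RANKL, limma called 2 of these higher with PRDX1 (3.8% of all genes tested), with 4 higher and 8 lower at an unadjusted p under 0.05, and voom also called 2 higher. With RANKL it called 0 lower (4.17% of all genes), with 2 higher and 7 lower at an unadjusted p under 0.05, and voom called 2 higher and 0 lower. RANKL raised 1 and lowered 2 on average (7.09% and 6.61% of all genes), with a median log2 change of 0.049 beside 0.085 for all genes tested. Of the nearest annotated neighbours, Snrnp40 (splicing) beside Nkain1, Gngt2 (a G protein subunit) beside Phospho1, and Yars and Sync beside C77080 were called in none of the 3 comparisons. Their average RANKL effects were 0.41, -0.09, 0.46 and 0.08 on the log2 scale. The noncoding or pseudogene neighbours Gm16433, Gm35359, Gm38958 and Gm12976 were not analysed here.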
